A study of Canis lupus familiaris with 69 samples.

Results

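Eph receptors are a family of receptor tyrosine kinases, and ephrins are their membrane-bound ligands. The 10 genes described are 6 receptors (EPHA7, EPHA2, EPHA3, EPHA4, EPHB2 and EPHB4) and 4 ligands (EFNA1, EFNA5, EFNB1 and EFNB2), out of 15947 genes measured in the canine endometrium. They were taken by symbol from the platform annotation, and each has a single probe set. EPHA7 heads the group because it was chosen by its measured levels in these dogs, as the gene with the largest fall in pyometra, so its pyometra values are given as a description and carry no test.

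Ephrins of the A class are held in the membrane by a lipid anchor and bind mainly EphA receptors, whereas B class ephrins cross the membrane and bind mainly EphB receptors. Since receptor and ligand both sit on cell surfaces, signals pass between touching cells and in both directions, and they set repulsion, adhesion, tissue boundaries and the assembly of vessels. In the uterus of mice and women several members are known from the epithelium, the stroma and the vessels, where they have been studied in implantation and in the cycle.

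The arrays measured RNA of endometrial tissue from 69 dogs, 1 array per dog, after the luminal exudate had been excluded. There were 17 dogs with pyometra (a uterus filled with pus), 15 with mucometra (filled with sterile mucus), 16 with cystic endometrial hyperplasia (CEH, a thickened endometrium with cystic glands) and 21 healthy dogs in diestrus, the luteal phase of the canine cycle. The mucometra group was named from the titles, although another label of these dogs says hemometra, a uterus filled with blood. The dogs were of many breeds, the healthy dogs were younger on the whole, some dogs with lesions were in anestrus, and some dogs, most often those with pyometra, had earlier been given progesterone-like compounds. Treatment, cycle stage and cervix condition of each dog were not analysed here, and these differences and the diagnosis cannot be told apart.

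All values are log2 expression on 1 common scale of normalised arrays, whose medians lay between 6.2 and 6.34. A difference of 1 between groups is a 2-fold difference, and levels of different genes are not comparable because each rests on its own probes. Calls of change required a fold of 2 or more and a Benjamini-Hochberg adjusted p under 0.05 over all 15947 genes from limma. Every adjusted p given is from limma, except those stated for the permutation tests of EPHA7. Endometrial markers were present in every group: the mean of EPCAM, an adhesion molecule of epithelial cells, was between 8.55 and 9.62, and that of ESR1, the estrogen receptor, between 10.11 and 11.28. Both were lowest in pyometra and were called lower there than in diestrus. A pair of arrays from different diagnoses stood close together. Pyometra dog 100 and mucometra dog 216 correlated at r = 0.993 over all genes, against 0.989 for the next closest pair of dogs. For the 10 genes, calls of change that were gained or lost without these 2 dogs are given both ways. Correlations between genes, or with marker lists, were computed only with both dogs included. Case numbers in the titles went with the diagnosis, at 6 to 170 in diestrus and 185 to 231 in pyometra apart from dog 100.

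EPHA7, an A class receptor known for repulsive signals and for shaping neural tissue during development, had the widest range of the 10 genes. It spanned 4.68 to 10.98 with a median of 6.78 in the 17 dogs with pyometra. The 15 dogs with mucometra had values between 4.76 and 11.21 with a median of 8.81, and the 16 dogs with CEH had values between 8.43 and 11.72 with a median of 10.28. In diestrus the 21 values lay between 10.75 and 12.23 with a median of 11.47. The levels were thus lowest in pyometra, next in mucometra, next in CEH and highest in diestrus, and neighbouring groups overlapped. Of the dogs with pyometra, 16 of 17 lay below every diestrus dog, and so did 12 of 15 with mucometra and 9 of 16 with CEH. The spread between dogs was much wider in pyometra and mucometra than in diestrus, with an SD of 1.68 in pyometra, 1.75 in mucometra, 1.07 in CEH and 0.38 in diestrus.

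**Figure D1:**
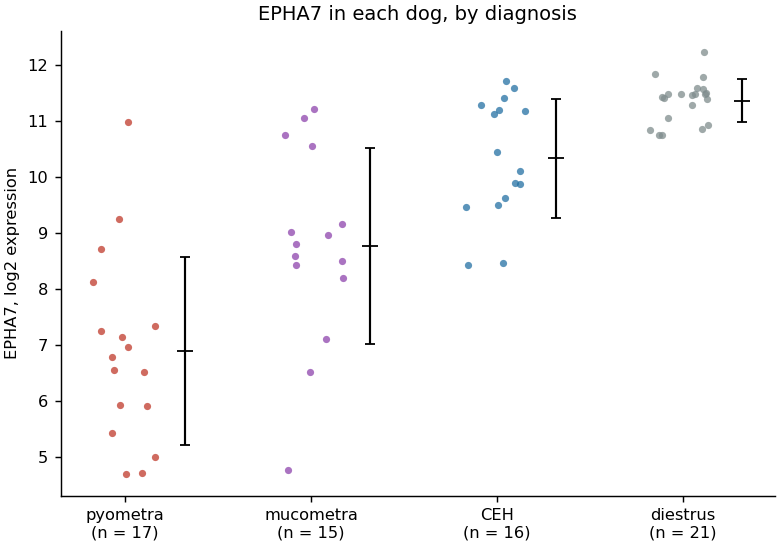
Log2 expression of EPHA7 (vertical axis) in each dog by diagnosis (horizontal axis), with points for single dogs and bars for the group mean ± SD. The diestrus dogs sit between 10.75 and 12.23, and 16 of the 17 dogs with pyometra sit below all of them.

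As the values that chose the gene, EPHA7 averaged 6.89 ± 1.68 in the 17 dogs with pyometra and 10.30 ± 1.55 in the 52 other dogs (SD), a difference of -3.41 on the log2 scale. The next largest fall in pyometra was that of SULT1D1, a sulfotransferase, at -2.76. Against diestrus alone the EPHA7 difference was -4.47, a 22.2-fold lower level in pyometra. It was -3.44 against CEH and -1.88 against mucometra. Only 2 dogs with pyometra lay below every other dog of the series, or 7 of 17 when mucometra dog 216 (4.76) was left out, and 14 of 17 lay below every CEH dog. One dog with pyometra, dog 213, had a level of 10.98, inside the diestrus range, and the next highest dog with pyometra was at 9.25. The neutrophil markers of dog 213 had a mean of 1.94 above the average of all dogs, against a group median of 2.60. Those of dog 207, the dog at 9.25, had a mean of -0.34, and the group ran from -0.66 to 4.24. Over the 17 dogs with pyometra EPHA7 had an r of 0.07 with these markers, and their part in its level was not tested.

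The comparisons without pyometra were not the contrast that chose the gene. The diestrus, CEH and mucometra dogs were the other side of that contrast, so the tests between them are not independent of the choice. In mucometra against diestrus EPHA7 fell, with a log2 fold change of -2.59 ± 0.43 (SE), a 6.03-fold lower level (adjusted p = 8.92e-07), where 2.8% of all genes fell. All 15 dogs with mucometra lay below the diestrus median. A two-sided permutation test of the same difference over 100000 resamples gave p = 2e-05, the smallest it can give, or 6e-05 after adjustment over the 3 comparisons tested this way. The call held without dogs 100 and 216, at -2.30 ± 0.39 (adjusted p = 2.19e-06), and with the case number in the fit, at -2.74 ± 0.50 (9.08e-06). Case numbers ran from 90 to 227 in mucometra, most of them above the highest in diestrus (170). The fit with the case number can therefore tell number and diagnosis apart only in part.

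In CEH against diestrus EPHA7 was lower by 1.03 ± 0.42 on the log2 scale (SE), with a 95% interval of the log2 fold change from -1.87 to -0.20, and its adjusted p of 0.0609 missed the threshold. The 16 CEH dogs divided over a wide range, with 7 of them inside the diestrus range and 9 below it. The permutation test gave p = 0.00022 (0.00033 adjusted over 3 comparisons, not over all genes). It treats dogs of the 2 groups as exchangeable, whereas their SDs differed, at 1.07 in CEH and 0.38 in diestrus. The adjusted p depended on which dogs set the spread. It was 0.00222 with only CEH and diestrus in the fit, 0.0363 without dogs 100 and 216, and 0.0498 with a weight for each diagnosis, which put the gene past both thresholds. EPHA7 was also called with dim genes left out. Under the other alternatives it was not called, and the highest adjusted p among them was above that of the main fit.

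Between mucometra and CEH the log2 fold change was -1.56 ± 0.45 (SE), a 2.95-fold lower level in mucometra, with an adjusted p of 0.0421 and a permutation p of 0.00488, where 0.0752% of all genes fell. The groups overlapped, with 5 of 15 dogs with mucometra below every CEH dog. This call was not stable. Without pyometra dog 100 and mucometra dog 216, at 4.76 the lowest of its group, the difference was -1.27 ± 0.42 with an adjusted p of 0.0832. With both dogs kept, the adjusted p was 0.0809 with only these 2 groups in the fit and 0.0569 with all probe sets tested together.

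None of the other 9 genes was called in any of the 6 comparisons, and all their differences stayed under 2-fold. Over all genes, 9.99% were called in pyometra against diestrus, 6.36% in mucometra against diestrus, 1.87% in CEH against diestrus, 3.64% in pyometra against mucometra, 5.99% in pyometra against CEH and 0.395% in mucometra against CEH. By the adjusted p alone, with no minimum of fold, 7 of the 9 passed in pyometra against diestrus (6 higher and 1 lower), where 53% of all genes passed, 23.4% higher and 29.6% lower. In mucometra against diestrus 6 of the 9 passed, all higher, where 44.7% of all genes did and 20.5% were higher, and in CEH against diestrus 2 passed, both higher, where 24.8% did and 11.4% were higher. Between pyometra and mucometra 1 passed, as higher, where 37.4% of all genes did and 18.9% were higher. Between pyometra and CEH 4 passed, 3 higher and 1 lower, where 43.3% did, 20.3% higher and 23% lower. Between mucometra and CEH 0 of the 9 passed in limma, where 3.15% of all genes did, and 2 (EPHA2 and EPHB4) had an unadjusted p under 0.05. The median log2 fold change of the 9 genes was 0.45 in pyometra, 0.38 in mucometra and 0.17 in CEH against diestrus, where the medians over all genes were -0.05, -0.01 and -0.01. These 3 comparisons share the same diestrus dogs.

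**Figure D2:**
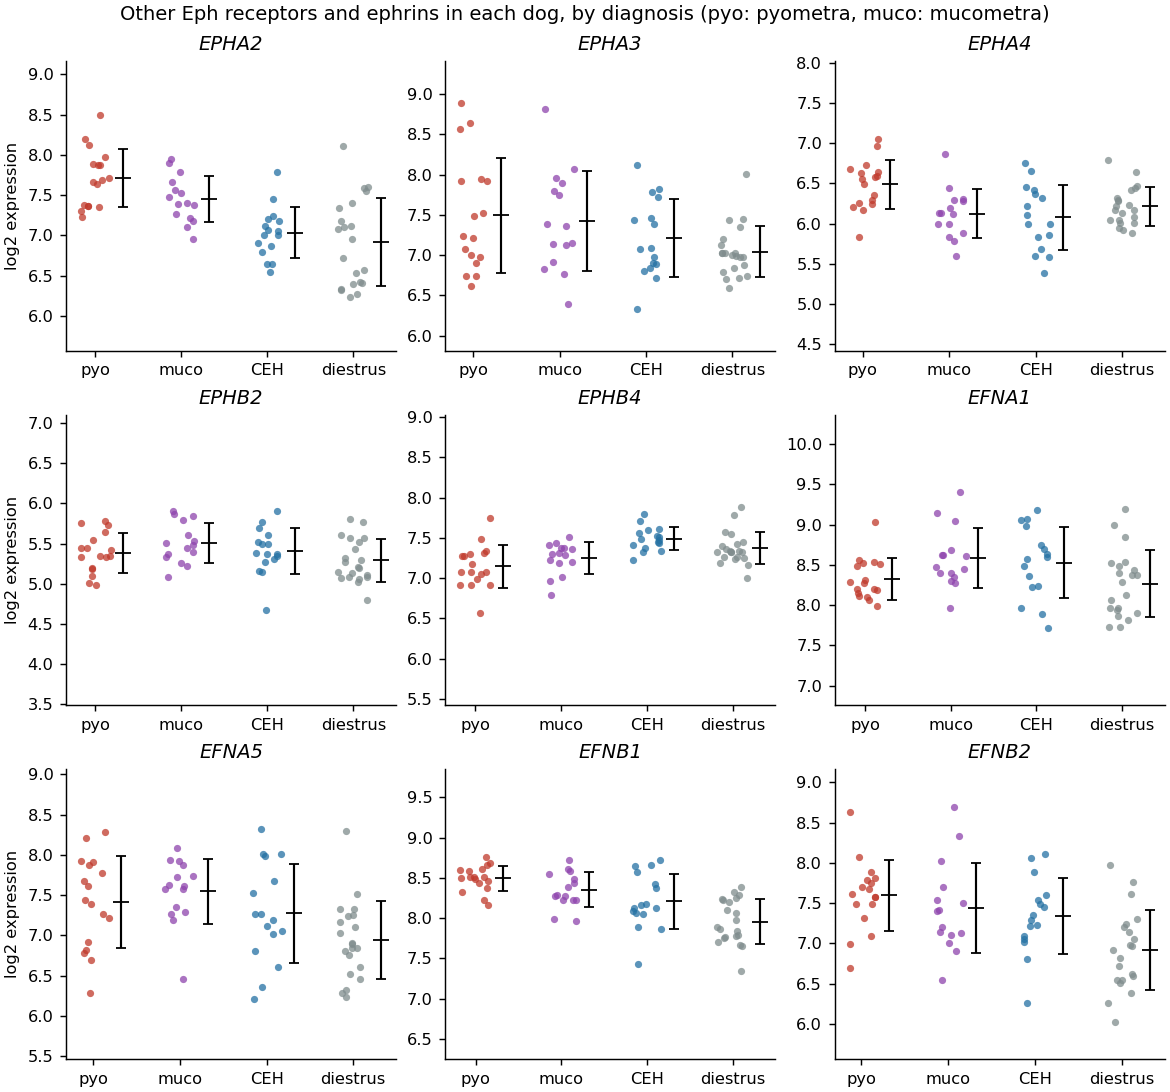
Log2 expression (vertical axes, of equal span) of the other 9 Eph receptors and ephrins in each dog by diagnosis (horizontal axes), with points for single dogs and bars for the mean ± SD. EPHA2, EFNB1 and EFNB2 sit highest in pyometra and lowest in diestrus, EPHB4 sits lowest in pyometra, and every gene overlaps between pyometra and diestrus.

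Among the A class receptors, EPHA2, a receptor of epithelial cells that binds EFNA1 with high affinity, had the largest difference of the 9. It spanned 7.23 to 8.50 with a median of 7.69 in pyometra, 6.95 to 7.95 with a median of 7.40 in mucometra, 6.55 to 7.79 with a median of 7.03 in CEH and 6.23 to 8.11 with a median of 6.95 in diestrus. All 17 dogs with pyometra lay above the diestrus median and above the CEH median, although only 3 lay above every diestrus dog. The log2 fold change was 0.80 ± 0.13 in pyometra against diestrus (SE, 1.74-fold, adjusted p = 3.79e-07) and 0.68 ± 0.14 against CEH (1.60-fold, adjusted p = 5.38e-05), both under the 2-fold minimum. In mucometra it was 0.54 ± 0.14 against diestrus (adjusted p = 0.000808), in CEH it was 0.12 ± 0.13 (0.575), and between pyometra and mucometra 0.26 (0.140). Diestrus dogs differed most among themselves, with an SD of 0.55 against 0.36 in pyometra.

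EPHA3, a receptor found mainly on mesenchymal cells, spanned 6.61 to 8.89 with a median of 7.24 in pyometra and 6.59 to 8.01 with a median of 7.00 in diestrus. A few dogs set the upper end, since 3 with pyometra, 2 with mucometra and 1 with CEH exceeded every diestrus dog. The difference of 0.45 ± 0.17 in pyometra against diestrus passed by adjusted p alone (0.0245), whereas 0.38 in mucometra (0.078) and 0.17 in CEH (0.538) did not. Pyometra dog 100 and mucometra dog 216 were among the highest, at 8.56 and 8.82, and without them the pyometra difference was 0.38 (adjusted p = 0.0428) and the mucometra difference 0.28 (0.182).

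EPHA4, a receptor that binds ephrins of both classes, spanned 5.84 to 7.05 with a median of 6.56 in pyometra. Mucometra ran 5.60 to 6.86 with a median of 6.13, CEH 5.39 to 6.75 with a median of 6.05, and diestrus 5.88 to 6.79 with a median of 6.17. Within pyometra 16 of the 17 dogs lay above the median of mucometra and of CEH, and 15 above that of diestrus. The log2 fold change was 0.41 ± 0.11 against CEH (adjusted p = 0.00138), 0.37 ± 0.11 against mucometra (0.00621) and 0.27 ± 0.10 against diestrus (0.0188). It was the only one of the 9 that passed by adjusted p alone between pyometra and mucometra. Mucometra and CEH differed from diestrus by -0.09 (0.505) and -0.14 (0.350).

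EPHB2, a B class receptor known for sorting cells along the intestinal crypt, was dim, with all 69 values between 4.68 and 5.91. EPHB2 and EPHA4 were also the 2 of the 10 genes whose highest group mean fell below the 40th percentile of all genes. Its largest difference was 0.22 ± 0.09 in mucometra against diestrus (SE, adjusted p = 0.0379), with 14 of 15 dogs above the diestrus median. This passed by adjusted p alone and not after each array was centred on its median (0.0802).

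EPHB4, the receptor that marks veins and that binds EFNB2 on arteries, was the 1 gene of the 9 that lay lower in pyometra. It spanned 6.57 to 7.75 with a median of 7.08 in pyometra, 6.79 to 7.51 with a median of 7.30 in mucometra, 7.23 to 7.80 with a median of 7.48 in CEH and 7.00 to 7.88 with a median of 7.33 in diestrus. In pyometra 10 of 17 dogs lay below every CEH dog and 5 below every diestrus dog. The log2 fold change was -0.35 ± 0.07 against CEH (adjusted p = 8.43e-05) and -0.22 ± 0.07 against diestrus (0.00407). Between mucometra and CEH it was -0.24 ± 0.08, with 6 of 15 dogs with mucometra below every CEH dog (adjusted p = 0.0560).

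Of the A class ligands, EFNA1, which is induced by inflammatory cytokines in human endothelium, did not separate pyometra from diestrus. It spanned 7.99 to 9.03 with a median of 8.27 in pyometra and 7.73 to 9.20 with a median of 8.29 in diestrus, a log2 fold change of 0.06 (95% interval -0.19 to 0.31, adjusted p = 0.712). Mucometra values lay between 7.96 and 9.41 with a median of 8.47, higher than diestrus by 0.32 ± 0.13 (adjusted p = 0.0338, or 0.0573 with arrays median-centred), and CEH values between 7.71 and 9.18 with a median of 8.59, higher by 0.26 (0.117).

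EFNA5, a ligand of EPHA7 in the developing nervous system, lay higher in both lesions with a filled uterus. It spanned 6.28 to 8.28 with a median of 7.44 in pyometra, 6.46 to 8.09 with a median of 7.61 in mucometra, 6.21 to 8.32 with a median of 7.23 in CEH and 6.23 to 8.30 with a median of 6.89 in diestrus. All 4 groups overlapped over most of their ranges. The log2 fold change against diestrus was 0.48 ± 0.17 in pyometra (adjusted p = 0.0132), 0.61 ± 0.17 in mucometra (1.53-fold, 0.00282) and 0.34 in CEH (0.143).

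The B class ligands EFNB1 and EFNB2 lay higher than diestrus in all 3 lesions, whereas EFNB3, named after its values were seen, was lower by 0.53 on the log2 scale in pyometra (adjusted p = 2.84e-07) and differed by -0.10 in mucometra (0.371). EFNB1, which marks tissue boundaries, spanned 8.16 to 8.76 with a median of 8.51 in pyometra, 7.97 to 8.72 with a median of 8.29 in mucometra, 7.43 to 8.72 with a median of 8.15 in CEH and 7.34 to 8.39 with a median of 7.89 in diestrus. It gave the cleanest separation of the 9 genes, with 13 of 17 dogs with pyometra, 6 of 15 with mucometra and 5 of 16 with CEH above every diestrus dog. The log2 fold change against diestrus was 0.54 ± 0.08 in pyometra (1.45-fold, adjusted p = 1.57e-07), 0.39 ± 0.09 in mucometra (0.000155) and 0.25 ± 0.09 in CEH (0.0232). Its spread was small in pyometra, with an SD of 0.16 against 0.28 in diestrus.

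EFNB2, the ligand that marks arteries and takes part in sprouting of vessels, spanned 6.69 to 8.63 with a median of 7.61 in pyometra and 6.55 to 8.70 with a median of 7.40 in mucometra. CEH ran 6.26 to 8.11 with a median of 7.32, and diestrus 6.03 to 7.98 with a median of 6.92. The groups overlapped, yet 16 of 17 dogs with pyometra lay above the diestrus median. The log2 fold change against diestrus was 0.68 ± 0.16 in pyometra (1.61-fold, adjusted p = 0.000173), 0.53 ± 0.16 in mucometra (0.00586) and 0.43 ± 0.16 in CEH (0.0407). EFNB1 and EFNB2 were the 2 genes that passed by adjusted p alone in CEH, EFNB1 not with only CEH and diestrus in the fit (0.0585) and EFNB2 not with arrays median-centred (0.0514).

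With the case number of each dog in the fit, 3 of the 9 genes (EPHA2, EFNB1 and EFNB2) passed by adjusted p alone in pyometra against diestrus, and EPHA3, EPHA4, EPHB4 and EFNA5 did not. Apart from dog 100, the case numbers of pyometra and diestrus do not overlap, so number and diagnosis cannot be told apart between these groups.

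The remaining family members were read from a list of 12 further genes, of which 11 were measured. None rose in any comparison. In pyometra against diestrus 2 fell, EFNA4 and EPHB1, and in mucometra against diestrus 1 fell, EFNA4, where 3.27% and 2.8% of all genes fell, and none was called in the other 4 comparisons. By the adjusted p alone, 6 of the 11 passed in pyometra against diestrus, all lower, and 3 in mucometra, all lower, where 29.6% and 24.2% of all genes were lower. In CEH 4 passed, 3 lower and 1 higher (EPHA6, by 0.59 on the log2 scale, adjusted p = 0.0152), where 13.4% of all genes were lower and 11.4% higher. Their median log2 fold change was -0.29 in pyometra and -0.10 in mucometra.

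**Figure D3:**
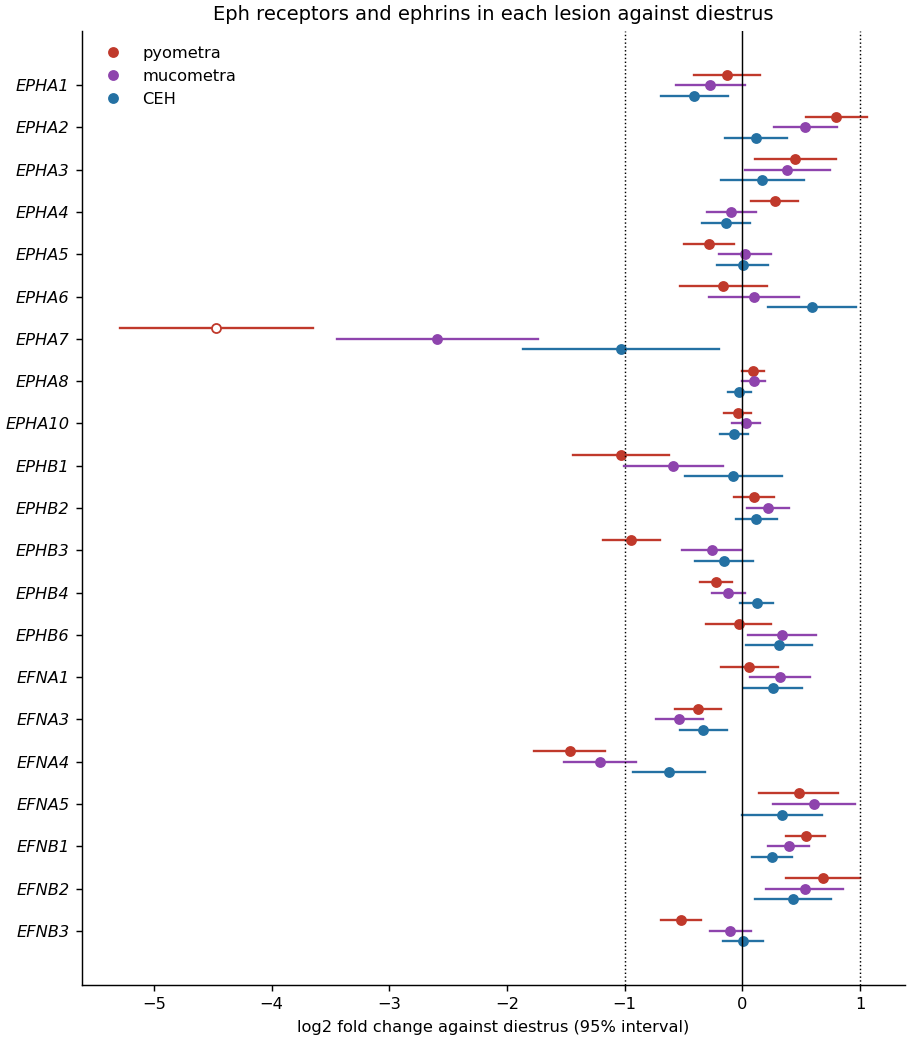
Log2 fold change against diestrus (horizontal axis, points) with its 95% interval (bars) for the 21 measured Eph receptors and ephrins (vertical axis) in pyometra, mucometra and CEH, with dotted lines at 2-fold. EPHA7 stands farthest left at -4.47 in pyometra (open point) and -2.59 in mucometra, followed by EFNA4 at -1.47 and -1.21. The open point and its interval are a description, since EPHA7 was chosen by its fall in pyometra against all other dogs.

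EFNA4, a lipid-anchored ligand of several EphA receptors, spanned 5.96 to 7.13 with a median of 6.31 in pyometra, 6.03 to 7.46 with a median of 6.64 in mucometra, 5.99 to 8.27 with a median of 7.30 in CEH and 7.07 to 8.39 with a median of 7.92 in diestrus. The order of the groups was that of EPHA7. It fell 2.77-fold in pyometra (log2 fold change -1.47 ± 0.15, adjusted p = 4.38e-13) and 2.31-fold in mucometra (-1.21 ± 0.15, 3.29e-09) against diestrus. In CEH it was lower by 0.62 ± 0.15 on the log2 scale, under the 2-fold minimum (adjusted p = 0.00156).

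EPHB1, a B class receptor, spanned 5.23 to 7.30 with a median of 5.83 in pyometra and 6.11 to 8.19 with a median of 6.88 in diestrus. It fell 2.05-fold, at -1.03 ± 0.20 on the log2 scale (adjusted p = 1.42e-05). The fold was at the edge of the minimum: its log2 value was -0.996 without dogs 100 and 216, just short of 2-fold, and -0.88 with the mean of all its probe sets. EPHB3, which was not called and is named after its values were seen, was lower by 0.94 on the log2 scale in pyometra against diestrus (adjusted p = 7.27e-10).

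Downstream of the receptors, 50 of 52 listed adaptors and effectors were measured. In pyometra against diestrus 5 of the 50 were called (2 higher and 3 lower), in mucometra against diestrus 6 (3 higher and 3 lower), in CEH against diestrus 1, in pyometra against mucometra 1, in pyometra against CEH 2 and in mucometra against CEH 0. These are 10%, 12%, 2%, 2%, 4% and 0% of the list, where 9.99%, 6.36%, 1.87%, 3.64%, 5.99% and 0.395% of all genes were called. By direction, 6.72% of all genes rose and 3.27% fell in pyometra against diestrus, 3.56% rose and 2.8% fell in mucometra against diestrus, 1% fell in CEH against diestrus, and 2.81% and 4.32% rose in pyometra against mucometra and against CEH. The median log2 fold change of the list in pyometra was 0.00, against -0.05 over all genes.

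SLA, the Src-like adaptor first found as a partner of EPHA2, averaged 7.88 ± 0.41 in pyometra, 7.46 ± 0.63 in mucometra, 6.64 ± 0.77 in CEH and 6.00 ± 0.34 in diestrus (SD). It rose 3.68-fold in pyometra (adjusted p = 2.03e-14) and 2.76-fold in mucometra (1.44e-09) against diestrus, and 2.35-fold in pyometra against CEH (1.86e-07). SLA is also a gene of lymphocytes, and the T and NK cell markers averaged 0.66 in pyometra (range -0.63 to 2.34), 0.39 in mucometra (-0.62 to 1.81), -0.23 in CEH (-0.94 to 1.12) and -0.64 in diestrus (-1.12 to 0.36), relative to the average of all dogs. Their part in the SLA result was not tested. VAV3, a signalling protein recruited by EphA receptors, averaged 7.62 ± 0.48 in pyometra and 6.02 ± 0.46 in diestrus and rose 3.04-fold (adjusted p = 1.25e-14). Against CEH it rose 2.31-fold (4.58e-09).

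GRIP1, a PDZ scaffold protein that binds the tails of B class ephrins and Eph receptors, averaged 6.19 ± 0.44 in pyometra, 6.50 ± 0.51 in mucometra, 6.99 ± 0.74 in CEH and 7.74 ± 0.43 in diestrus (SD). It fell 2.95-fold in pyometra (adjusted p = 5.96e-12) and 2.37-fold in mucometra (4.13e-08). LYN, a Src family kinase of leukocytes and epithelia, averaged 9.02 ± 0.71 in pyometra, 7.91 ± 0.56 in mucometra, 8.51 ± 1.00 in CEH and 9.68 ± 0.39 in diestrus. LYN fell 3.41-fold in mucometra (3.70e-09) and 2.26-fold in CEH (8.51e-05) against diestrus, and it was 2.15-fold higher in pyometra than in mucometra (adjusted p = 0.000185). The other called effectors, named after their values were seen, were PAK1 and NGEF, lower in pyometra, and CHN2 (lower), VAV3 and CHN1 (both higher) in mucometra against diestrus, of which VAV3 and CHN1 fell just short of 2-fold without dogs 100 and 216, and CHN1 also with the mean of its probe sets.

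The pattern of EPHA7 was then compared with that of all other genes, as Pearson's r over the 69 dogs after the mean of each diagnosis had been subtracted. All points share their arrays and their normalisation, and the values are a description. Over 15946 genes the median r was 0.01, and the range from the 5th to the 95th percentile ran from -0.35 to 0.37. The 10 highest were SATB1 (0.76), MPPED2 (0.74), ETNK2 (0.71), WNT11 (0.71), ARID1A (0.70), TBC1D30 (0.70), SLC30A2 (0.70), IGDCC3 (0.69), GRIP1 (0.68) and MSI1 (0.68). SATB1 is a chromatin organiser, WNT11 a secreted Wnt ligand, ARID1A a subunit of the SWI/SNF chromatin remodelling complex, SLC30A2 a zinc transporter and MSI1 an RNA-binding protein of stem and progenitor cells.

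SATB1 averaged 7.45 ± 0.54 in pyometra, 8.13 ± 0.49 in mucometra, 8.65 ± 0.66 in CEH and 9.33 ± 0.29 in diestrus (SD). Its r with EPHA7 was 0.70 in pyometra, 0.88 in mucometra, 0.91 in CEH and 0.68 in diestrus. These are parts of the pooled r by which SATB1 was picked as the highest of all genes. WNT11 averaged 5.74 ± 0.78 in pyometra and 8.43 ± 0.33 in diestrus, with an r of 0.85 within pyometra and of -0.03 within diestrus, where both genes varied little. Of the family genes outside the 10, r with EPHA7 was read only for EFNA4 (0.65), EPHB1 (0.59) and EPHB3 (0.24). Pyometra dog 213, which had the highest EPHA7 of its group, also had the highest EFNA4 (7.13) and the highest EPHB1 (7.30) of it. In CEH the dogs with the lowest EPHA7, dogs 133 and 171 at 8.43 and 8.47, had an EFNA4 of 6.04 and 5.99, below every diestrus dog.

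**Figure D4:**
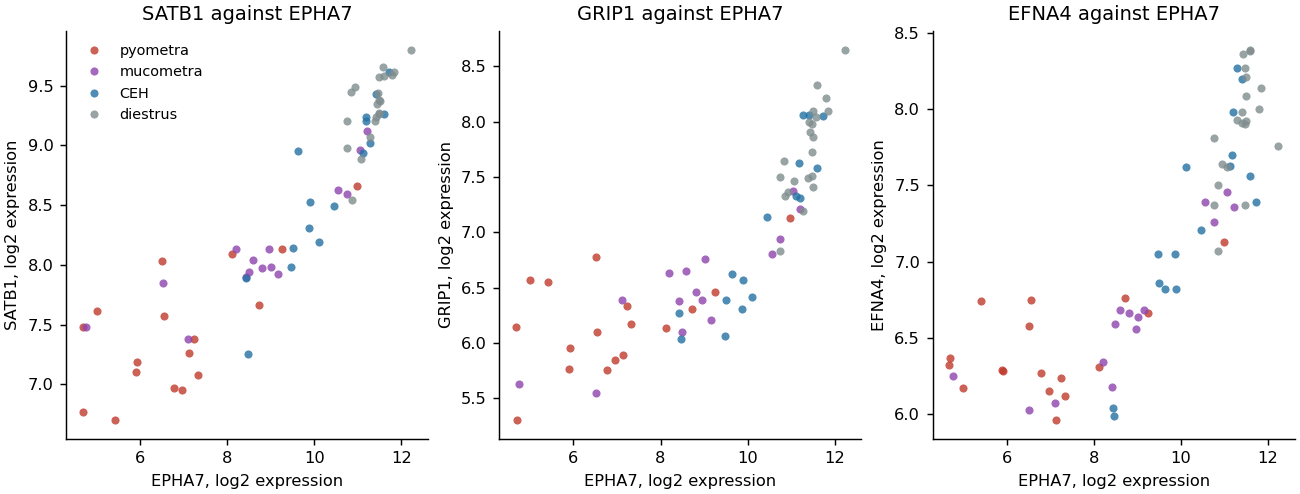
Log2 expression of SATB1, GRIP1 and EFNA4 (vertical axes) against that of EPHA7 (horizontal axes), 1 point per dog, coloured by diagnosis. Over the 69 dogs with group means removed r was 0.76, 0.68 and 0.65, and CEH dogs overlap both the mucometra and the diestrus dogs.

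The r of EPHA7 with the other 9 genes was between -0.39 (EPHA3) and 0.33 (EPHB4). EPHA3 was negative in all 4 groups, at -0.29 in pyometra, -0.40 in mucometra, -0.69 in CEH and -0.27 in diestrus, and its overall value lies below the 5th percentile over all genes. The mucometra value leans on dog 216, which had the lowest EPHA7 (4.76) and the highest EPHA3 (8.82) of its group. Pyometra dog 100 lay alike, at 4.68 and 8.56, and r was not computed without these 2 dogs. EPHB4 differed between groups, at 0.22 in pyometra, 0.74 in mucometra, 0.41 in CEH and -0.25 in diestrus. Among the 45 pairs of the 10 genes the highest r was that of EFNA5 and EFNB2 at 0.62, which was 0.56 in pyometra, 0.50 in mucometra, 0.76 in CEH and 0.67 in diestrus. Next came EFNB1 and EFNB2 (0.50), EPHA2 and EFNB1 (0.49) and EPHA2 and EFNB2 (0.47). Within pyometra alone these were 0.36, 0.63 and 0.10. The genes most like each of the 9 were SHB for EPHA2 (r = 0.76), ITGA5 for EPHA3 (0.71), JAG2 for EPHA4 (0.58), TIMM9 for EPHB2 (0.45), AMOTL1 for EPHB4 (0.74), CGN for EFNA1 (0.75), ADAM22 for EFNA5 (0.78), SPRY1 for EFNB1 (0.68) and HEG1 for EFNB2 (0.71). ITGA5 is the fibronectin receptor subunit, CGN a tight junction protein, SPRY1 an inhibitor of receptor tyrosine kinase signalling, and HEG1 a receptor of endothelial cells.

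The samples are bulk tissue, so fewer cells of a type and less RNA per cell cannot be told apart. Markers of 11 cell types or states were therefore read as means of each list relative to the average of all dogs. Neutrophil markers averaged 1.96 in pyometra (range -0.66 to 4.24), -0.40 in mucometra (-0.96 to 0.35), -0.66 in CEH (-1.06 to 0.02) and -0.79 in diestrus (-1.30 to -0.20), and all 8 measured of 9 were called higher in pyometra against diestrus. Endothelial markers averaged 0.51 in pyometra (range -0.51 to 1.04), -0.01 in mucometra (-0.90 to 0.44), 0.00 in CEH (-1.11 to 0.75) and -0.40 in diestrus (-1.08 to 0.19). All 9 of them passed higher by adjusted p in pyometra against diestrus, 4 of them past 2-fold. Stromal fibroblast markers averaged 0.33 in pyometra (range -0.39 to 0.90), 0.11 in mucometra (-0.27 to 0.56), 0.07 in CEH (-0.93 to 0.57) and -0.40 in diestrus (-1.16 to 0.08). In pyometra against diestrus 4 of the 9 were called higher, and 0 passed lower by adjusted p. COL1A1, COL1A2 and COL3A1 had lower means in pyometra (11.71, 11.20 and 10.37) than in diestrus (12.03, 11.45 and 10.40). Over all genes 6.72% were called higher there, and 23.4% passed higher and 29.6% lower by adjusted p alone. Simple epithelium markers had list means of 0.03 in pyometra (range -0.94 to 0.70), -0.04 in mucometra (-0.88 to 0.65), -0.13 in CEH (-1.20 to 0.58) and 0.10 in diestrus (-0.56 to 1.21), but their members went both ways. By adjusted p 7 of 8 passed in pyometra against diestrus, 5 lower and 2 higher, with a median log2 fold change of -0.52 against -0.05 over all genes, and past 2-fold MUC1 rose and EPCAM fell.

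Several genes went with these lists over the 69 dogs once group means were removed, though not always within pyometra alone. EFNB2, which lay highest in pyometra as the endothelial list did, had an r of 0.61 with that list (0.56 within pyometra), EPHA2 of 0.53 (0.09) and EFNB1 of 0.47 (0.01). With simple epithelium markers r was 0.51 for EPHA2 (0.58 within pyometra) and 0.44 for EPHA4, which had the opposite sign within pyometra (-0.14). EPHA3 had an r of 0.51 with stromal fibroblast markers and 0.47 with smooth muscle markers (0.56 and 0.64 within pyometra), and EPHB4 and EFNA5 had 0.46 and 0.48 with the uterine gland and endometrium list (0.58 and 0.80 within pyometra). That last list averaged -0.39 in pyometra (range -1.47 to 0.19), 0.10 in mucometra (-0.08 to 0.35), 0.19 in CEH (-0.29 to 0.50) and 0.10 in diestrus (-0.19 to 0.42). EFNA1 went against proliferation markers, with an r of -0.64 (-0.43 within pyometra). The part of these lists in the differences between diagnoses was not tested.

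**Figure D5:**
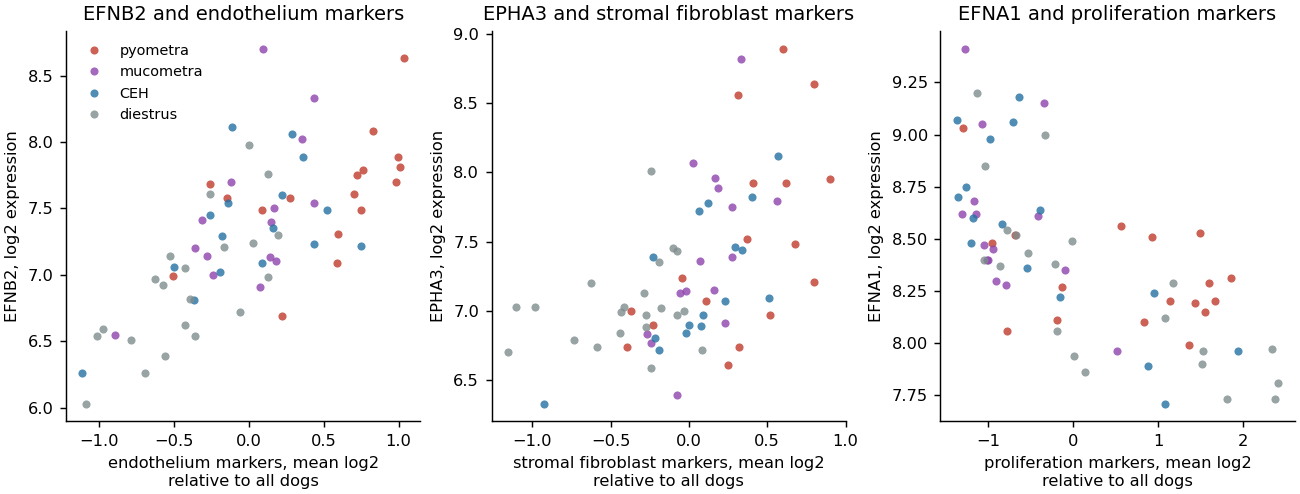
Log2 expression of EFNB2, EPHA3 and EFNA1 (vertical axes) against the mean of endothelium, stromal fibroblast and proliferation markers relative to all dogs (horizontal axes), 1 point per dog, coloured by diagnosis. With group means removed r was 0.61, 0.51 and -0.64 over the 69 dogs.

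EPHA7 went with none of the 11 lists to that degree: r was between -0.27 (macrophage, and B and plasma cell markers) and 0.26 (simple epithelium), and it was 0.03 with neutrophil and 0.02 with endothelial markers. A list mean can hide a single marker. FOXA2 of the uterine gland and endometrium list, named after its values were seen, had an r of 0.46 with EPHA7, above the 95th percentile of 0.37 over all genes. It averaged 5.74 in pyometra, 5.89 in mucometra, 6.41 in CEH and 7.00 in diestrus. ESR1 and PGR of that list had an r of 0.19 and 0.04. Pyometra dog 100 had the lowest EPHA7 of all dogs, 4.68, with the lowest neutrophil list of its group (-0.66), while mucometra dog 216, at 4.76, had a neutrophil list of -0.40. Within the 17 dogs with pyometra EFNA5 had an r of 0.80 with the uterine gland and endometrium list and of -0.83 with B and plasma cell markers, whose mean spanned -0.80 to 3.35 there and -1.15 to -0.55 in diestrus.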

How the data were processed

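Endometrial RNA of 69 dogs was hybridised to 1 canine gene array each. The authors made log2 values per probe set by RMA (background correction, quantile normalization, summary), whose version was not stated in the sources used here, and deposited them as a single table running from -0.16 to 14.12. Of 32391 probe sets, 16545 carried 1 symbol, 370 several and 15476 none in the platform annotation. Each gene kept its brightest probe set, with 598 others left out, for 15947 genes. Names were checked in RefSeq genes of the dog, and all 10 genes matched. Diagnosis came from the sample titles. All 4 groups were fitted together with limma 3.58.1 (lmFit, eBayes) in R 4.3.3, with 6 pairwise contrasts, after the calls had been tested on simulated data. The number of arrays limits the precision. Figures used Python 3.11.15 and matplotlib 3.10.9.

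The members and lists were chosen with earlier results of these data known. Genes named are the 10 members, other family genes called in any contrast, the 3 largest called effectors per contrast, the 10 genes most like EPHA7 and the 1 most like each other member. Alternatives were other samples in the fit, a trended robust prior, median-centring, a filter on dim genes, other probe set choices, case number, and fits without pyometra dog 100 and mucometra dog 216. Scanner files were not used here, so background correction, normalization and slide were not varied.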

Additional observations from a re-analysis of the deposited data

How the results depend on the processing

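Under the alternatives 474 values of single genes kept their direction and their side of the threshold, 15 no longer passed it and 10 newly passed it. Direction turned only for 2 differences near 0: EPHB2 in pyometra against CEH was 0.0072 with arrays median-centred, and EPHA4 in mucometra against CEH was -0.0083 without dogs 100 and 216. The count of the 10 genes called past 2-fold in CEH against diestrus was 1 (EPHA7) with only the 2 groups in the fit, with dim genes left out (adjusted p = 0.0453), without dogs 100 and 216 and with array weights by diagnosis, against 0 otherwise. In mucometra against CEH it was 0 with only the 2 groups in the fit, with all probe sets tested together (EPHA7 adjusted p = 0.0569) and without dogs 100 and 216, against 1 otherwise, and 23 genes in all were called there with only the 2 groups in the fit, against 63. By adjusted p alone, 3 of the 9 genes other than EPHA7 passed in pyometra against diestrus with the case number. Of the same 9, 0 passed in pyometra against mucometra with dim genes left out. EPHA4, which had passed there, was itself removed by that filter and so was not tested. In CEH against diestrus 1 of the 10 genes passed with median-centring, all probe sets or the case number. In mucometra against CEH 2 of the 10 passed with only the 2 groups, median-centring, dim genes left out or array weights, and 0 with all probe sets or without dogs 100 and 216. The adjusted p of EPHA7 ranged from 1.18e-07 to 9.08e-06 in mucometra against diestrus, from 0.00222 to 0.0893 in CEH against diestrus and from 0.0271 to 0.0832 in mucometra against CEH. CHN1 and VAV3, called higher in mucometra, fell short of 2-fold without dogs 100 and 216, at 0.96 and 0.99 on the log2 scale, and CHN1 also with the mean of its probe sets, at 0.84. With arrays median-centred, 5 of the 10 genes passed by adjusted p alone in mucometra against diestrus, against 7. Array weights and the permutation tests were chosen after seeing the data. No paired analysis was possible because each dog has its own case number and the groups share none.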
